A study of Mus musculus with 8 samples.

Results

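The Sox transcription factors described here are 10 mouse genes, chosen as all genes whose symbol in the annotated probe table was Sox1, Sox2, Sox3, Sox4, Sox5, Sox6, Sox8, Sox9, Sox10 or Sox11. They were measured by 12 probes of 55681 on the array, and were 10 of the 23912 genes that could be named. The accessions of 10 of the 12 probes gave the same symbol through RefSeq, and the other 2 were named by the table alone. Cells came from the ventral midbrain of mouse embryos at stage E14.5 heterozygous for a Gfp allele of Pitx3, written Pitx3(Gfp/+). Pitx3 is a transcription factor gene that marks midbrain dopaminergic neurons, so Gfp labelled those cells. Every group carried the same heterozygous allele, including the cells of the reference. The tissue was cut into a rostral and a caudal part, dissociated with papain, and sorted for Gfp. There were 4 rostral and 4 caudal pools of Gfp-positive cells, each from 5 to 7 embryos spread across litters, and a common reference, a pool of Gfp-negative cells of those specimens.

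Each pool was hybridised in Cy3 against the reference in Cy5 on a 2-colour Agilent array, and every value below is a log2 ratio of a Gfp-positive pool over that reference unless a channel is named. The dyes were never swapped, so a dye effect and the sort cannot be told apart in a ratio to the reference. It drops out of the difference between rostral and caudal pools only as far as it is alike on all 8 arrays. The reference counted as 1 control sample, which leaves its own spread out of each test against it. The p-values measure the spread between pools, which may share litters. The scanner software flagged a spot as well above background or not: 62.5% to 70.4% of probes passed in Cy3, and 54% to 63.5% in Cy5. The sort was checked on 12 dopaminergic genes: all 12 were higher in Gfp-positive cells, with a median log2 ratio of 3.49, where 34.5% of all 18601 genes tested were higher. Rostral pool 2 stood apart in 5 tested pericyte and mesenchyme genes, whose mean ratio was -1.10 in it, between -3.24 and -3.18 in the other rostral pools and between -3.58 and -3.07 in caudal pools. Of these markers, Rgs5 was not well above background in the sample channel of any pool. Without that pool, 8 members passed against the reference in rostral pools and 9 in caudal pools (Sox6 in addition), and the Sox3 difference between the parts still passed, at -0.74 (adjusted p = 0.0209, limma).

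Sox proteins bind DNA through an HMG box, a domain shared with the sex-determining factor Sry, and are grouped by sequence. SoxB1 factors (Sox1, Sox2 and Sox3) hold neural cells in a progenitor state. SoxC factors (Sox4 and Sox11) act in newly born neurons as they leave that state. SoxD factors (Sox5 and Sox6) lack an activation domain of their own and modulate other Sox proteins, and Sox6 is known as a marker of substantia nigra dopaminergic neurons. SoxE factors (Sox8, Sox9 and Sox10) act in glial precursors and in the neural crest, and Sox9 also in radial glia.

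Promoter windows were available for 7 of the 10 genes from RefSeq, build GRCm38.p6, and the 250 bases before the annotated start were read in the direction of the gene. Windows of 4 members, 1 from each subgroup, are shown because the results below differ by subgroup. Capitals mark ACAATG or ACAAAG, letters bound by many Sox HMG boxes, searched on both strands (CATTGT and CTTTGT on the other). No matches overlap in the windows shown.
Sox2 (SoxB1), chr3:34649745-34649994, + strand: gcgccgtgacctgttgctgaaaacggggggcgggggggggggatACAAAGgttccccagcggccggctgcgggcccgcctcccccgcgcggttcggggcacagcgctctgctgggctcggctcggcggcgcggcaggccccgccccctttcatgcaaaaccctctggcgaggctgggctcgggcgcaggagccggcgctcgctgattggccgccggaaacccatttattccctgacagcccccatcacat
Sox11 (SoxC), chr12:27342719-27342968, - strand: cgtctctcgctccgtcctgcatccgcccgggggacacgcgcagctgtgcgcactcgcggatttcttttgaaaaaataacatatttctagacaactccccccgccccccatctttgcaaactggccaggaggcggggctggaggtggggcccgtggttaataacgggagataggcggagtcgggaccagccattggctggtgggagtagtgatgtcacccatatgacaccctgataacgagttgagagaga
Sox6 (SoxD), chr7:116038745-116038994, - strand, the farthest upstream of its 6 annotated starts: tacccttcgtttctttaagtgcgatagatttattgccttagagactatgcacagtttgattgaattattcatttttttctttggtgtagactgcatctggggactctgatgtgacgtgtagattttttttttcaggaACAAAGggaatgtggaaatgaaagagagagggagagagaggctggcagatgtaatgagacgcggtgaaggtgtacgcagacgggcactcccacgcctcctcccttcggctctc
Sox8 (SoxE), chr17:25570687-25570936, - strand: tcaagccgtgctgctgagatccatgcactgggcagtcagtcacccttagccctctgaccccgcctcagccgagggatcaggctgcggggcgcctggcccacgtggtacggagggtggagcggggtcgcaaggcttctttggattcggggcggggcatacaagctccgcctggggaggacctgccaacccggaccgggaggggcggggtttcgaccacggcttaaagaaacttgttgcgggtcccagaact
The Sox2 and Sox6 windows each held ACAAAG, and those of Sox11 and Sox8 held neither motif. Of all 32851 windows of this length in the table, 25.2% held at least 1 of the motifs, 10.7% ACAATG and 16.5% ACAAAG. The members had 12 windows in all, 7 of them with a motif, and 6 of the 12 belonged to Sox6 alone. The Sox2 window was 72% G or C with 27 CpG, the Sox8 window 65.6% with 18, the Sox11 window 58% with 17 and the Sox6 window 45.2% with 9. The median over all windows was 52.4% with 6 CpG. These matches describe letters and are not measured binding sites.

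Among these 10 genes, the SoxB1 and SoxE transcripts were far lower in Gfp-positive cells than in the reference. Sox4 and Sox11 were moderately lower, and of Sox5 and Sox6 only Sox6 could be tested and did not pass. Of the 10 genes, 9 passed the filter on dim probes, which asked that either channel be well above background on at least 4 of 8 arrays. Of these 9, 8 were lower, 0 were higher and 1 did not pass limma's test at a Benjamini-Hochberg adjusted p of 0.05. Across all genes tested 71.4% passed and 36.9% were lower, so a call alone sets no member apart. The median ratio of the 9 was -2.38, against -0.01 over all 18601 genes. Sox1, Sox2, Sox3, Sox8, Sox9 and Sox10 were at least 2-fold lower, as were 9.72% of all genes tested. The same 8 genes were lower in rostral pools alone, where 31.8% of genes were lower, and in caudal pools alone, again 31.8%. In these bulk pools, fewer cells of a type and less RNA per cell cannot be told apart.

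**Figure D1:**
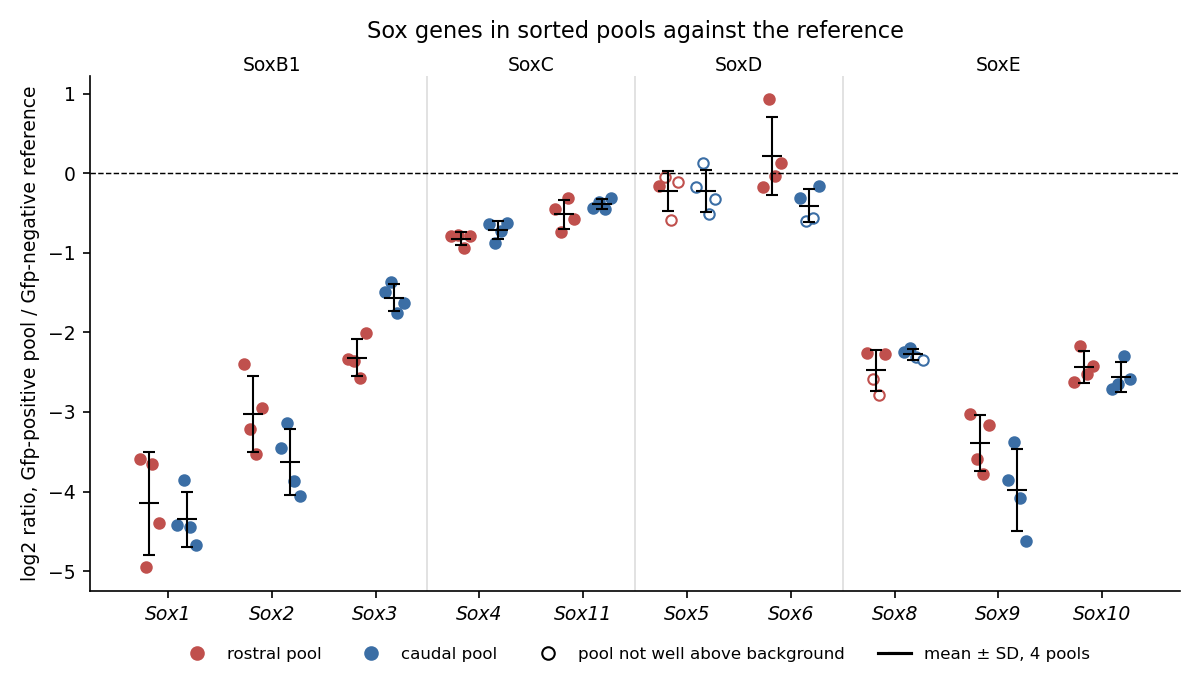
The vertical axis is the log2 ratio of each Gfp-positive pool over the Gfp-negative reference for the brightest table probe of each gene. Points are single pools, open where the sample channel was not well above background, and bars are the mean and SD of 4 pools. In 8 of 8 pools the 6 SoxB1 and SoxE genes lie below both SoxC genes, and Sox3 alone has parts that do not overlap.

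Sox1 had the lowest mean ratio of the 10 genes. Its rostral pools read -3.59, -4.95, -3.66 and -4.39, and its caudal pools -4.42, -3.86, -4.44 and -4.68. All 8 lay far below 0 and the parts overlapped, with rostral pool 2 the lowest of all. The ratio averaged -4.25 over both parts (SE 0.15, adjusted p = 6.26e-09 with limma), a 19.0-fold lower level, and only 21 of 18601 genes tested were lower still. The probe was well above background in both channels on every array.

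Sox2, which with Sox1 and Sox3 maintains neural progenitors, read -2.40, -3.21, -3.53 and -2.95 in rostral pools and -3.45, -3.14, -3.87 and -4.05 in caudal pools. Rostral pool 1 was the least reduced and the 2 lowest pools were caudal, but the parts overlapped. The mean of both parts was -3.33 (SE 0.14, adjusted p = 1.68e-08 with limma). Of all genes tested, 0.672% had a lower ratio.

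Sox3, an X-linked gene of the same subgroup, was the mildest of the 3. It read -2.33, -2.36, -2.57 and -2.01 in rostral pools, against -1.50, -1.37, -1.76 and -1.63 in caudal pools. Every rostral pool lay below every caudal pool. The mean of both parts was -1.94 (SE 0.06, adjusted p = 2.51e-09 with limma), 3.84-fold lower than the reference.

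The SoxC genes stayed closest to the reference among the called members. Sox4 read -0.79, -0.78, -0.94 and -0.79 in rostral pools and -0.64, -0.87, -0.73 and -0.63 in caudal pools. Rostral pool 3 was the lowest and the parts overlapped. The mean of both parts was -0.77 (SE 0.03, adjusted p = 1.69e-08 with limma), 1.71-fold lower, and -0.47 with the processed signals of the scanner software (adjusted p = 2.96e-06).

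Sox11 read -0.45, -0.74, -0.31 and -0.58 in rostral pools and -0.44, -0.36, -0.44 and -0.31 in caudal pools. The rostral pools spread more widely and spanned the caudal ones. The mean of both parts was -0.45 (SE 0.04, adjusted p = 7.07e-06 with limma). Both SoxC genes lay above all 6 SoxB1 and SoxE genes in 8 of 8 pools. The highest SoxB1 or SoxE ratio of any pool was -1.37, in caudal pool 2, against -0.87 for the lower SoxC ratio of that pool.

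Among SoxE genes, Sox9, a factor of radial glia and glial precursors, read -3.03, -3.60, -3.77 and -3.17 in rostral pools and -3.86, -3.38, -4.09 and -4.62 in caudal pools. Caudal pool 4 was the lowest and the parts overlapped. The mean of both parts was -3.69 (SE 0.13, adjusted p = 6.29e-09 with limma), a 12.9-fold lower level, and 70 of 18601 genes tested had a lower ratio. Its probe was printed as 10 spots per array, which were averaged.

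Sox10, a factor of the oligodendrocyte lineage and neural crest, read -2.63, -2.17, -2.53 and -2.43 in rostral pools and -2.72, -2.65, -2.30 and -2.58 in caudal pools. The pools lay in a narrow band and the parts overlapped. The mean of both parts was -2.50 (SE 0.07, adjusted p = 1.48e-09 with limma), 5.65-fold lower.

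Sox8, the third SoxE gene, read -2.26, -2.59, -2.78 and -2.27 in rostral pools and -2.25, -2.20, -2.31 and -2.34 in caudal pools. Rostral pools 2 and 3 were lowest, and both were among the pools whose sample channel was not well above background. The sample channel passed that flag in 2 of 4 rostral and 2 of 4 caudal pools, and the reference on all 8 arrays. The mean ratio was -2.38 (SE 0.08, adjusted p = 2.85e-09 with limma), and -4.32 with the scanner software's processed signals, so the size of its ratio differed by over 1.5 times between the ways of processing.

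**Figure D2:**
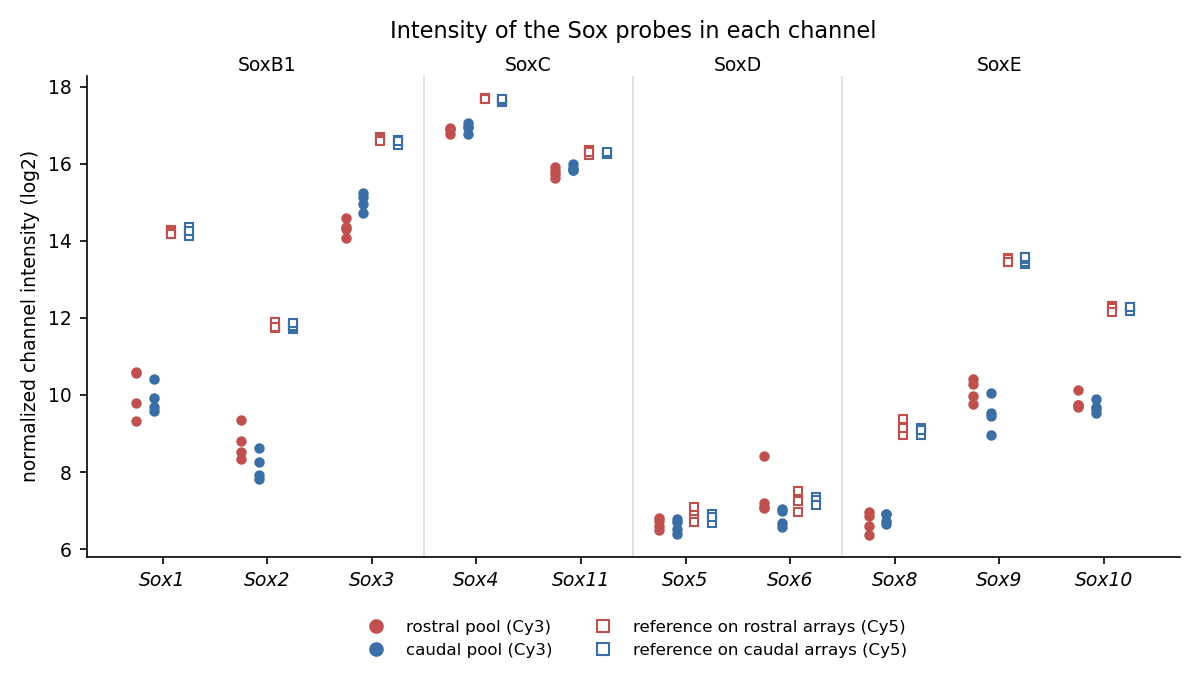
The vertical axis is the log2 intensity of each channel after normalization, with filled circles for Gfp-positive pools in Cy3 and open squares for the reference in Cy5. The reference squares of each gene sit close together across arrays, while the sample circles of Sox1, Sox2 and Sox9 spread more widely. Intensities of different genes come from different probes and are not compared as levels.

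In the channels behind these ratios, the reference varied less than the sample over the 8 arrays for each of the 9 members tested. For Sox1 the sample channel ran from 9.33 to 10.6 and the reference from 14.1 to 14.4 on the log2 intensity scale. For Sox9 the sample ran from 8.96 to 10.4 and the reference from 13.4 to 13.6. The sample channel of both genes spread over more than a log2 unit. For Sox4 the sample ran from 16.8 to 17.1 and the reference from 17.6 to 17.7, and for Sox11 the sample ran from 15.6 to 16.0 and the reference from 16.2 to 16.4. The SoxC probes were thus bright in both channels on every array, and 0 member probes were saturated in either channel.

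The SoxD probes of the table lay close to background. Sox6, the marker of substantia nigra neurons, read -0.17, 0.93, -0.04 and 0.13 in rostral pools and -0.31, -0.60, -0.56 and -0.16 in caudal pools. Rostral pool 2 stood far above the rest, and rostral pool 1 lay within the caudal range. Rostral pool 2 is also the pool whose pericyte and mesenchyme genes stood apart, and their part in its Sox6 value was not tested. The sample channel was well above background in 4 of 4 rostral and 2 of 4 caudal pools, and the reference on 3 of 8 arrays. The ratio of both parts together was -0.10 (SE 0.12, adjusted p = 0.473 with limma). Rostral pools averaged 0.21 ± 0.49 (adjusted p = 0.286) and caudal pools -0.41 ± 0.21 (adjusted p = 0.0570, SD, n = 4 pools each, limma). The call was not stable: without rostral pool 2 the ratio of both parts was -0.22 with adjusted p = 0.0320, the rostral ratio -0.03, and the caudal ratio passed with adjusted p = 0.00753 (limma). The caudal ratio also passed with a smaller background offset of 10 (-0.61, adjusted p = 0.0338), with median centring (-0.50, adjusted p = 0.0445) and with the processed signals (-1.52, adjusted p = 0.0219, all limma).

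Sox5 could not be tested with the probes that named it. Its brighter table probe was well above background in 1 of 4 rostral and 0 of 4 caudal pools and on 0 of 8 arrays in the reference, and the other on none. That probe read -0.16, -0.05, -0.59 and -0.11 in rostral pools and -0.18, 0.12, -0.51 and -0.32 in caudal pools, with no separation of the parts. A further probe, tied to Sox5 by its accession but outside the table, was found after values were seen and was bright in both channels on all 8 arrays. It read 0.54, 0.31, 0.89 and 0.31 in rostral pools and 0.15, 0.26, 0.76 and 0.56 in caudal pools. All 8 pools were above 0, and in a fit over all probes, where 67.5% passed and 34.7% were higher, its mean was 0.47 (SE 0.08, adjusted p = 6.73e-04, limma). The level of Sox5 relative to the reference thus rests on which probe is read.

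**Figure D3:**
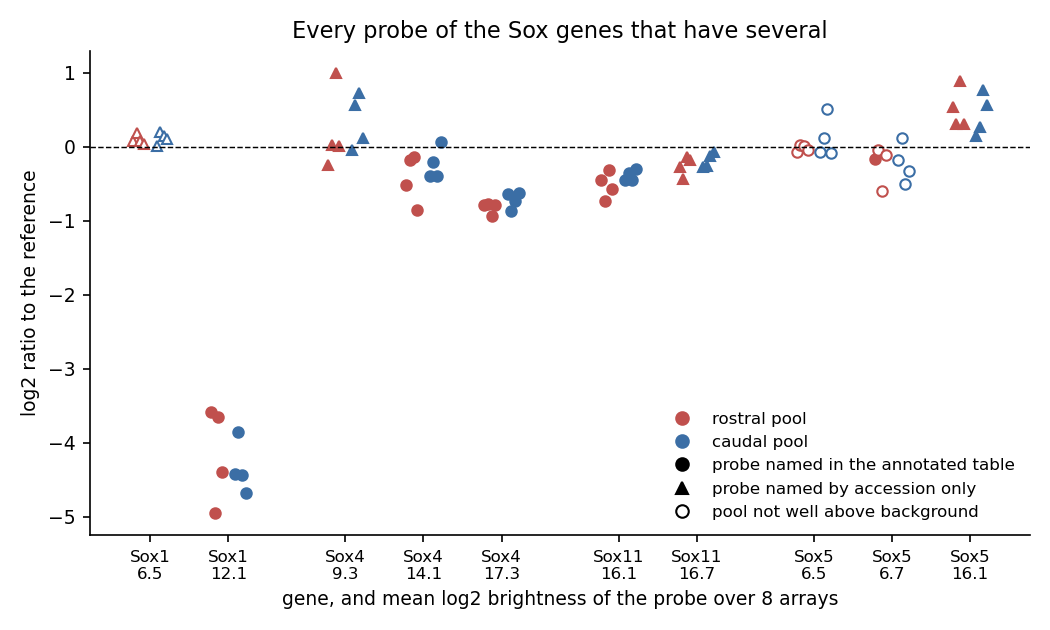
The vertical axis is the log2 ratio to the reference for every probe of the 4 genes with more than 1, with the mean log2 brightness of each probe under its gene. Circles are table probes, triangles probes named by accession alone, and open symbols are not well above background. The Sox5 triangles lie above 0 and the Sox4 probes step down as brightness rises, at 9.3, 14.1 and 17.3.

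Other probes also moved the SoxC values. The dimmer Sox4 table probe read -0.51, -0.18, -0.14 and -0.85 in rostral pools and -0.40, -0.20, -0.39 and 0.07 in caudal pools. Its mean was -0.33 (SE 0.08, adjusted p = 0.00702 with limma over all probes), in the same direction as the brighter probe but smaller. An accession-named Sox4 probe had a mean of 0.27 that did not pass (SE 0.14, adjusted p = 0.121), and all 3 Sox4 probes were above background in both channels on every array. For Sox11 the accession-named probe gave -0.22 (SE 0.04, adjusted p = 6.37e-04), against -0.45 for the table probe. The extra Sox1 probe was not well above background in either channel on any array.

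Of the 9 members tested between rostral and caudal pools, only Sox3 passed the test. A gene entered this comparison if its sample channel was well above background on at least 4 of 8 arrays. Of the 9 members, 1 was lower in rostral pools, 0 were higher and 8 did not pass, where 6.33% of 18098 genes passed, 2.8% lower and 3.53% higher in rostral pools. A count of 1 in 9 is near that background and is not a result about the family. The median difference of the members was 0.12, against 0.01 over all genes tested.

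**Figure D4:**
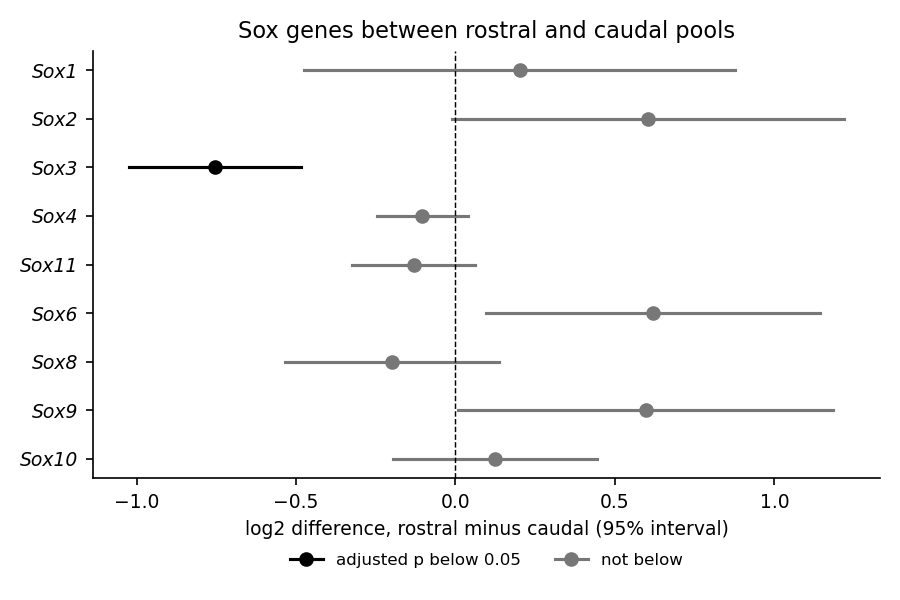
The horizontal axis is the log2 difference, rostral minus caudal, with its 95% interval from limma, for the 9 members tested. Sox3, in black, lies at -0.75 and passes an adjusted p of 0.05, and the other 8, in grey, do not.

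Sox3 averaged -2.32 ± 0.23 in rostral pools and -1.56 ± 0.17 in caudal pools (SD, n = 4 each). The difference was -0.75 (SE 0.12, 95% interval -1.02 to -0.48, adjusted p = 0.00675 with limma), a 1.69-fold lower ratio in rostral pools. The parts did not overlap, as for 12.5% of all genes tested (6.06% with caudal pools higher), and 1.92% of genes had a lower difference. The sample channel carried it: it averaged 14.34 in rostral pools and 15.01 in caudal pools, while the reference read 16.65 on rostral arrays and 16.58 on caudal arrays. Within the first row of the slide, which held 2 pools of each part, the difference was -0.91 (adjusted p = 0.0928), and within the second row -0.60 (adjusted p = 0.246, limma). With the row as a block it passed (adjusted p = 0.0111, limma).

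Genes of several lists also differed between the parts, in both directions. The mean ratio of 6 neural crest and Schwann cell genes lay between -1.72 and -1.60 in rostral pools and between -1.22 and -0.71 in caudal pools, with no overlap. Of the 5 that could be tested, 3 were lower in rostral pools, among them Ngfr at -1.38 (adjusted p = 6.62e-04) and Tfap2a at -0.80 (adjusted p = 0.0268, limma), and Foxd3 was above background in 0 of 4 rostral and 1 of 4 caudal pools. Sox10, itself a neural crest factor, did not pass, at 0.12 (interval -0.20 to 0.44). The mean ratio of 12 progenitor genes lay between -2.09 and -1.71 in rostral pools and between -1.85 and -1.61 in caudal pools, which overlap. Of those 12, Vim, at -0.63 (adjusted p = 0.0118), and Prom1, at -0.66 (adjusted p = 0.00940), were lower in rostral pools, and Dll1, at 0.70 (adjusted p = 0.0340, limma), was higher. The mean of 12 dopaminergic genes lay between 3.15 and 3.25 in rostral pools and between 3.34 and 3.40 in caudal pools. Of those 12, 3 were lower in rostral pools and 0 higher: En2 (-0.90), En1 (-0.78) and Slc18a2 (-0.56). Of 10 young neuron genes, 2 were lower in rostral pools and 0 higher: Nhlh2 (-0.97) and Tubb3 (-0.39). The part of these markers in the Sox3 difference was not tested.

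The 2 other SoxB1 genes did not show the Sox3 pattern, though their difference from it was not tested. Sox2 averaged -3.02 ± 0.48 in rostral pools and -3.63 ± 0.41 in caudal pools, and Sox1 averaged -4.15 ± 0.65 in rostral and -4.35 ± 0.35 in caudal pools (SD, n = 4 each). The Sox2 difference was 0.60 (interval -0.01 to 1.22, adjusted p = 0.270) and the Sox1 difference 0.20 (interval -0.47 to 0.88, adjusted p = 0.813, limma). Sox9 averaged -3.39 ± 0.35 in rostral pools and -3.99 ± 0.51 in caudal pools, a difference of 0.60 (interval 0.01 to 1.18, adjusted p = 0.253, limma). The means of Sox1, Sox2 and Sox9 were thus higher in rostral pools with none past the threshold, and the Sox2 and Sox9 intervals reached above 1 log2 unit.

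Sox6 differed by 0.62 (interval 0.10 to 1.14, adjusted p = 0.177 with limma), and by 0.38 without rostral pool 2. With the processed signals the difference was 2.14, still short of the threshold (adjusted p = 0.110). Sox4 differed by -0.10 (interval -0.25 to 0.04), Sox11 by -0.13 (interval -0.32 to 0.06) and Sox8 by -0.20 (interval -0.54 to 0.14). The Sox4 and Sox11 intervals were the tightest among the 9 members. The study's subject is subsets of dopaminergic neurons, and 5 of 12 tested subset markers differed between the parts in limma's test (adjusted p at most 0.0248). Aldh1a1 (0.57), Bcl11a (1.01), Lmo3 (0.73) and, named after its value was seen, Ndnf (1.61) were higher in rostral pools, and Otx2 (-2.07) was lower.

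The wider family gave a mixed picture. Of 10 other Sox genes tested against the reference, 3 were higher, 6 were lower and 1 did not pass, with a median of -0.34. For 2 of the 3 higher genes, Sox15 and Sry, and for Sox30 among the lower ones, 1 channel was not well above background in whole groups. The lowest was Sox21 (-2.89), a SoxB2 factor of neural progenitors, near the SoxB1 and SoxE values. The SoxF genes Sox18 (-1.81), Sox7 (-1.49) and Sox17 (-1.21), which act in endothelial cells, were also lower, as were 6 of 7 endothelial markers. Sox13 (-0.36), the third SoxD gene, was slightly lower, and Sox12 (0.33), the third SoxC gene, was higher. The wider Sox calls were also read under other scalings, and Sox13 no longer passed with median centring (-0.09, adjusted p = 0.0918, limma), a scaling that moved the median of all genes to 0.13.

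The reference was not well above background on any array for 3 of these genes, so they have at most a bound against it. A bound sets the mean of the pools against a floor averaged over arrays, which is the probe's own reference signal or the lowest signal well above background, whichever is greater. For Sox15 the rostral pools were at least 1.21-fold higher. In caudal pools its floor was the probe's own reference signal, so 1.27-fold higher is the measured ratio and not a minimum. The adjusted p over both parts was 5.04e-04 in the fit against the reference (limma). For Sry the floor was the probe's own reference signal in both parts, so its values are also measured ratios and not minimum values. They were 1.16-fold higher in rostral and 1.24-fold higher in caudal pools. The adjusted p over both parts was 0.00200 and became 0.0503 with median centring (limma). The Sox15 sample channel was itself well above background in 4 of 4 rostral but 2 of 4 caudal pools, and that of Sry in 3 of 4 of each part. These values average all pools of a part, also those not well above background. Sox14, a SoxB2 factor, did not pass (adjusted p = 0.818) and passed with the processed signals (adjusted p = 0.0176, limma). Sox30 was well above background in 2 of 4 rostral and 0 of 4 caudal pools and on 4 of 8 arrays in the reference. Here the floor was that of the caudal samples, and the reference on caudal arrays averaged 1.47-fold above it. That reference was well above background on only 2 of the 4 arrays, so the value is not a firm minimum. The adjusted p of Sox30 over both parts was 0.0177 (limma). The sizes of these dim genes depended on the processing: with the processed signals the fitted log2 ratios were 1.57 for Sox15, 1.69 for Sry and -1.10 for Sox30, against 0.32, 0.26 and -0.32 with normexp and loess. Between rostral and caudal pools, 0 of 9 other Sox genes passed limma's test, and 0 had an unadjusted p below 0.05.

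POU domain factors of class III bind DNA beside SoxB1 and SoxC proteins in neural cells. Of the 4 genes, 3 were lower than the reference and 1 did not pass, with a median of -0.72. Pou3f1 was at -1.87, Pou3f2 at -0.97, Pou3f4 at -0.47 and Pou3f3 at -0.24, the last not past the threshold (adjusted p = 0.205). Pou3f2 was higher in rostral pools by 0.49 (adjusted p = 0.0124), and Pou3f1 differed by 1.00 without passing (adjusted p = 0.0930, limma).

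**Figure D5:**
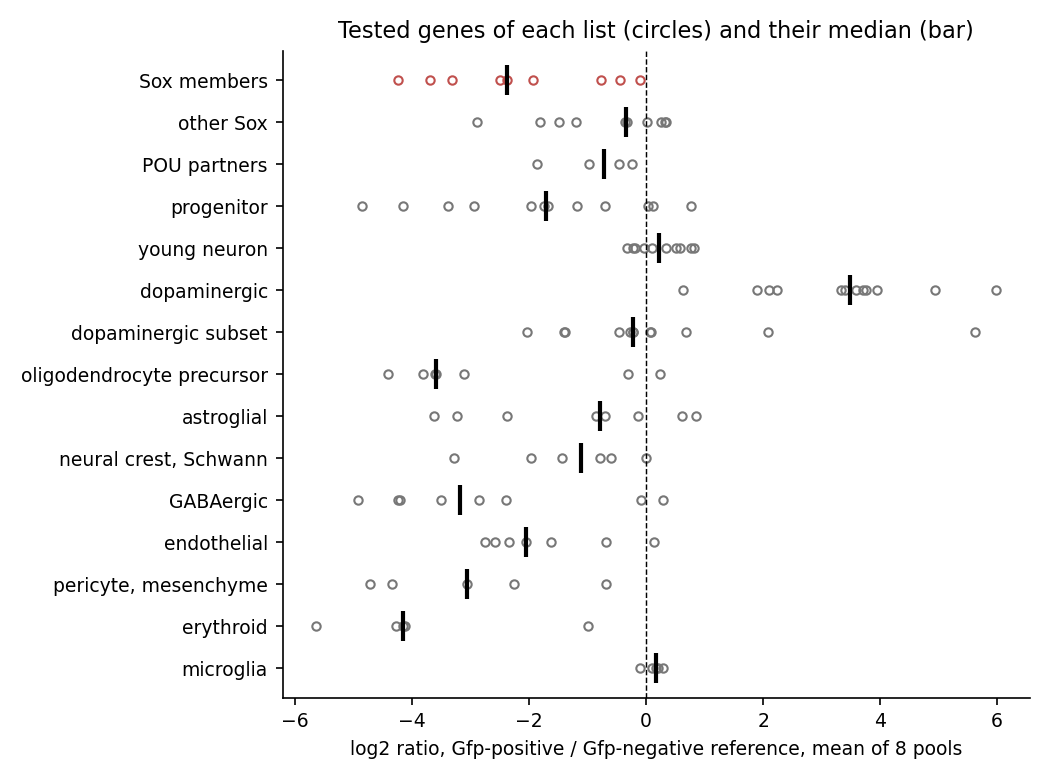
The horizontal axis is the mean log2 ratio of 8 pools over the reference for each tested gene of a list (circles), with the list median as a bar. The Sox members run between -4.25 and -0.10. Every other list plotted has genes in that range except the dopaminergic list, whose 12 genes all lie above 0.

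Most genes of the cell types in which SoxB1 and SoxE factors act were lower in the same pools. Of 12 progenitor genes 9 were lower, 2 higher and 1 did not pass, with a median of -1.71. Fabp7 (-4.86), Slc1a3 (-4.16), Hes5 (-3.38) and Nes (-1.97) were lower. The 2 that were higher, named after their values were seen, were the proneural factor Neurog2 (0.76) and the RNA-binding protein gene Msi1 (0.11). Of 7 oligodendrocyte precursor genes 6 were lower, with a median of -3.59, among them Olig1 (-4.41), Gpr17 (-3.60), Olig2 (-3.59) and Cspg4 (-3.12). Of 8 astroglial genes 5 were lower and 2 higher, with a median of -0.78. Fgfr3 (-3.63) and Aldh1l1 (-3.23) were lower, and the 2 that were higher, named after their values were seen, were Slc1a2 (0.85) and Gfap (0.61). Of 6 neural crest and Schwann cell genes 5 were lower and 1 did not pass, with a median of -1.11.

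Among genes of young neurons, where SoxC factors act, more were higher than lower, while Sox4 and Sox11 themselves were lower. Of 10, 6 were higher, 3 lower and 1 did not pass, with a median of 0.22. Dcx (0.82) and Elavl4 (0.77) were higher and Tubb3 (-0.19) was lower. The GABAergic list, neurons that share this tissue and are not dopaminergic, had 6 of 8 genes lower and a median of -3.18. Named after their values were seen, Slc32a1 was higher (0.28) and Gad2 did not pass (-0.09) against the reference over both parts together. By part, Gad2 was higher in rostral pools (0.46, adjusted p = 0.0486) and lower in caudal pools (-0.63, adjusted p = 0.0122, limma). Slc32a1 was higher in rostral pools (0.52, adjusted p = 0.00269) and did not pass in caudal pools (0.05, adjusted p = 0.709, limma). Between the parts, 2 of the 8 GABAergic genes were higher in rostral pools, 2 were lower and 4 did not pass. Gad2 (1.09, adjusted p = 0.0340) and Nkx2-2 (1.05, adjusted p = 0.00365) were higher. Tal2 (-1.79, adjusted p = 6.62e-04) and Tal1 (-1.01, adjusted p = 0.0428, limma) were lower. The erythroid list had 5 of 5 lower and a median of -4.16, and the pericyte list, in which rostral pool 2 stood apart, 4 of 5 lower and a median of -3.07. The microglia list had 0 of 5 called by limma (0 at an unadjusted p below 0.05), with a median of 0.17. Its mean ratio spread widely between pools, from -0.67 to 1.01 in rostral pools and from -0.71 to 1.02 in caudal pools. The lack of a call therefore does not show a level equal to the reference.

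The genes whose 8 ratios lay closest to each member were sought among 111 genes of these lists, by the root mean square of the differences over 8 pools. Sox1 was nearest to the globin genes Hbb-y (0.37 log2 units) and Hba-a1 (0.44). Sox2 was nearest to Hes5 (0.45), a Notch target of progenitors, and Gad1 (0.47), the GABA-synthesizing enzyme. Sox9 was nearest to Gad1 (0.44) and Fgfr3 (0.48). The closest gene of Sox3 was Nes (0.32), the progenitor filament nestin, ahead of Anxa1 (0.37). The lowest members were thus near genes of several unrelated cell types. Sox8 was nearest to Aqp4 (0.21) and Cdh5 (0.23), and Sox10 to Rgs5 (0.28), whose sample channel was not well above background on any array, and Cdh5 (0.37). Aqp4 is a water channel of astrocytes, and Cdh5 and Rgs5 mark vessels. Sox4 was nearest to Glul (0.18) and Nfib (0.20), Sox11 to Sox13 (0.20) and Myt1 (0.21), and Sox6 to Lmo3 (0.34) and Mbp (0.41). The untested Sox5 probe was nearest to Mbp (0.23) and Sox13 (0.24). The measure reads mainly the size of the ratio, since all values share 1 reference.

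Non-coding transcripts that overlap or neighbour members were read after values were seen. Sox1ot, which overlaps Sox1, was lower than the reference by its brighter probe, at -2.69 (SE 0.07, adjusted p = 2.28e-09), and higher in rostral pools by 0.74 (adjusted p = 0.0250, limma over all probes, where 3.34% passed and 1.82% were higher). Its rostral pools averaged -2.32 ± 0.25 and its caudal pools -3.06 ± 0.13 (SD, n = 4 each), with no overlap. Its other probe, above background in 2 of 4 rostral and 3 of 4 caudal pools, read -0.12 and did not pass (adjusted p = 0.185). Sox2ot, whose locus contains Sox2, was at -1.08 (SE 0.19, adjusted p = 8.13e-04, limma) and did not pass between the parts (-0.42, adjusted p = 0.718). Sox5os3 was not well above background in either channel on any array.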

How the data were processed

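Per the labels, each array held a Gfp-positive pool in Cy3 and the common Gfp-negative reference in Cy5, and groups were taken from the sample titles. Deposited scanner files, written per their headers by Agilent Feature Extraction (10.7.3.1), give raw median intensities of each spot and its surroundings, flags of 0 or 1, and processed intensities that the software had background-subtracted, detrended and dye-normalized. The submitters' processing notes also list RMA, whose use they do not state. A deposited table gave probe symbols only: its 8 value columns match no sample label and were not used.

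Intensities were corrected with normexp (offset 50) and normalized by loess in limma 3.58.1 under R 4.3.3, with control and outlier spots at weight 0. Spots of a probe were averaged. The brightest probe stood for a gene, for members among table probes only. Of the probes, 27528 were named by accession through RefSeq, 4105 by the table and 24048 not at all. All 8 arrays lay on 1 slide and shared 1 scan.

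Tests used lmFit and eBayes with an intensity trend, 2-sided, Benjamini-Hochberg adjusted over all genes tested. Only the rostral minus caudal test was tried on simulated data, and the tests against the reference were not. Precision is limited by 4 pools per part. Named genes were all members, all tested other Sox and POU genes, up to 4 genes per list with the smallest p, and the 2 nearest genes per member. The result of 1 list gene is not reported here. Members and lists were chosen with earlier results of these data known. Alternatives covered background, scaling, filters, probes, slide row, trend, a replicate block and leaving out each pool. The replicate numbers did not pair pools: same-numbered deviations correlated between -0.06 and 0.02.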

Additional observations from a re-analysis of the deposited data

Results flagged for a closer look

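Sox3 was lower in rostral than in caudal pools by -0.75 on the log2 scale (adjusted p = 0.00675, limma), the only member to pass the test between the parts. Sox4 in rostral pool 3, at -0.94, stood apart from the other rostral pools, which lay between -0.79 and -0.78. That gap filled most of the group's range (Dixon's test, critical value 0.829 for 4 pools). Among 20 groups of 4 pools checked, 1 was set apart in this way, and chance gives about 1 in 20.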

How the results depend on the processing

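The count of members called against the reference stayed at 8 or 9 under 20 alternatives in rostral pools, caudal pools and both together, and the 8 called genes passed with the same direction in all of them. The count over all genes between rostral and caudal pools was 1145. It fell to 0 within the first slide row (2384 at an unadjusted p below 0.05, limma, with no other tool run) and to 185 within the second row, each with 2 pools per part. The members called there were 0 and 0, against 1 in the full fit. Fewer samples entered those fits. The caudal count against the reference was 7157 within the first row, against 11030. With the replicate block the rostral minus caudal count was 724, and Sox3 still passed (adjusted p = 0.0155, limma). 0 of 8 arrays correlated best with an array of their own number. Leaving out each pool in turn gave 718 to 1013 genes, the lowest without caudal pool 1 and then caudal pool 4 (752), and Sox3 stayed between -0.86 and -0.67 (adjusted p at most 0.0258).

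Turned signs occurred in 3 uncalled values: Sox1 rostral minus caudal within the first row (-0.13), Sox10 within the second row (-0.037), and Sox6 in rostral pools without rostral pool 2 (-0.026). Leaving out other pools took that Sox6 value up to 0.34, without rostral pool 1. The cause was not tested. Reading the brightest probe of any kind, added after seeing the data, left Sox3 and Sox4 as they were and tested Sox5. Sox5, Sox6 and Sox8 are limited by signal over background. The Sox6 and Sox8 values, like those of the dim Sox15, Sry and Sox30, moved by over 1.5 times with the processed signals. The ratio of both parts together also moved for Pou3f4, from -0.47 to -1.29, and for the bright Sox4 probe, from -0.77 to -0.47.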
